A study of Mus musculus with 18 samples.

Results

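The genes described here encode the proteasome, the protease complex that degrades ubiquitin-tagged proteins, as measured by RNA-Seq in bone marrow-derived macrophages with and without the transporter *Slc7a7*. They were taken by symbol, as every gene named *Psma*, *Psmb*, *Psmc*, *Psmd* or *Psme* followed by a number with at least 10 counts over all libraries, leaving out *Psmb8* and *Psmb9*, which gave 41 of the 31053 genes listed. The macrophages came from 6 mice on a C57Bl/6J background, aged 12 weeks, 3 labelled Slc7a7-/- (knockout) and 3 labelled Slc7a7+/+ (wild type). The deletion was driven by LysM-Cre, which is expressed from the *Lyz2* locus of myeloid cells and can leave residual transcript. From each mouse, 100000 cells per library were kept for 24 h in 3 media, with vehicle (Control), with 50 µg/mL of acetylated LDL (AcLDL) or with 100 µg/mL of oxidized LDL (OxLDL). Scavenger receptors bind both of these modified lipoproteins, and macrophages that take them up become foam cells. The design gave 6 groups of 3 libraries, in which the media were paired by mouse and the genotypes were not. The 2 LDL preparations were used at different doses, so a difference between them cannot be told apart from a difference in dose.

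The proteasome consists of a barrel-shaped 20S core, in which rings of beta subunits carry the catalytic sites and rings of alpha subunits gate the entrance, and of regulators that dock on its ends. The 19S regulator has a base of ATPases that unfold substrates and a lid that removes ubiquitin, whereas the 11S (PA28) regulators open the core without ATP. Interferons replace the catalytic subunits of the core by *Psmb8*, *Psmb9* and *Psmb10* and raise *Psme1* and *Psme2*, a form known as the immunoproteasome, which produces peptides for MHC class I in antigen-presenting cells such as macrophages.

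Libraries held between 1043492 and 1768816 counts. *Slc7a7* was measured at between 11.1 and 29.3 CPM (library-normalised read counts, scaled by TMM, the trimmed mean of M-values) in the wild type libraries and between 2.22 and 10.9 CPM in the knockout libraries, and with counts summed per mouse it was lower in the knockout (log2 fold change -1.80 ± 0.19 SE, adjusted p = 0.0112 by edgeR's quasi-likelihood test), as labelled. Macrophage markers (*Csf1r*, *Adgre1* and 5 others) were present in every library, with a summed level of 12320 to 35590 CPM. The summed markers of neutrophils reached 212 CPM, those of stromal cells 26.8 CPM, and those of dendritic, lymphoid and erythroid cells at most 4.62 CPM. All 41 proteasome genes passed the filter on low counts, among 12290 genes tested, but *Psma8*, a testis alpha subunit, and *Psmb11*, a thymus-specific catalytic subunit, had at most 5 counts in any library and are left out of the description below.

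Per length, the proteasome genes differed by less than 10-fold from each other, except for *Psmd5* and *Psmd9*. Levels between genes were compared as TPM, computed from the counts and the length of all annotated exons of each gene together. *Psma6*, an alpha subunit, was highest with a mean over the 18 libraries of 203 TPM, followed by *Psme1* (196 TPM) and the lid subunit *Psmd8* (187 TPM). The lowest were *Psmd9* (9.02 TPM) and *Psmd5* (18.6 TPM), which help to assemble the 19S base and are not part of the finished complex. Their annotated exon lengths, 7248 and 7230 bases, were among the longest of the group, so their rank depends in part on the annotation. The median level was 103 TPM for 7 genes of the alpha ring, 80.2 TPM for 4 noncatalytic beta subunits, 84.9 TPM for 6 ATPases of the base and 71.3 TPM for 8 lid subunits. Levels of lid subunits started at *Psmd3* (30.2 TPM), and those of the ATPases ran from *Psmc2* (35.1 TPM) to *Psmc3* (141 TPM). Subunit protein was not measured in these libraries.

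**Figure D1:**
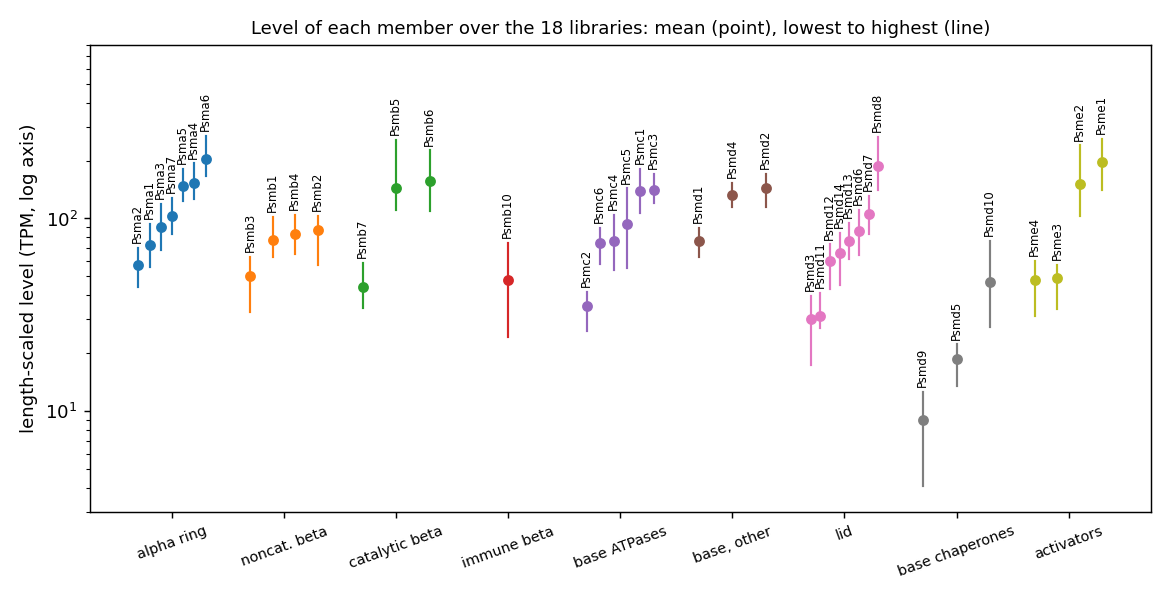
Length-scaled level (TPM, log axis) of 39 proteasome genes grouped by role, without *Psma8* and *Psmb11*. Points are means over the 18 libraries and lines run from the lowest to the highest library. The other 37 genes sit between 30.2 and 203 TPM, with *Psmd9* and *Psmd5* below.

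Of the 41 genes, 4 fell with OxLDL and none rose, when the response was averaged over both genotypes: *Psme1* and *Psme2*, which form the PA28 activator, *Psmb10*, an interferon-inducible catalytic subunit, and *Psmd10* (gankyrin), an assembly chaperone of the 19S base. Each was lower with OxLDL than with Control in 6 of 6 mice. The same mice gave the test, so this count is not separate evidence. *Psma2* and *Psmb7*, which did not pass, were also lower in 6 of 6 mice. Among all genes tested, 3.57% passed the same test as lower and 1.81% as higher. The median log2 fold change of the 41 genes was -0.07, against 0.01 for all genes tested. With AcLDL, 2 of the 41 genes fell, *Psme2* and *Psmd10*, and none rose, where 1.44% of all genes tested were lower and 0.561% higher. A gene is said to pass at an adjusted p (Benjamini-Hochberg) under 0.05 in edgeR's quasi-likelihood fit of the whole table.

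The windows around the annotated start of the PA28 pair and of *Psmd10* are shown because these 3 genes had the smallest p-values of the group. They run from 250 bases before to 50 after the RefSeq start on GRCm38.p6. Each reads 5′ to 3′ on the strand of the gene, with matches to the motifs searched in capitals. The gene coordinates are from GENCODE, in which *Psme1* starts before its window begins. *Psme1* (ENSMUSG00000022216, chr14:55578123-55581529, plus strand) and *Psme2* (ENSMUSG00000079197, chr14:55587441-55591113, minus strand) are neighbours that run towards each other, and *Psmd10* (ENSMUSG00000031429) is at chrX:140948429-140956728 on the minus strand.
Psme1, chr14:55578244-55578543, plus strand: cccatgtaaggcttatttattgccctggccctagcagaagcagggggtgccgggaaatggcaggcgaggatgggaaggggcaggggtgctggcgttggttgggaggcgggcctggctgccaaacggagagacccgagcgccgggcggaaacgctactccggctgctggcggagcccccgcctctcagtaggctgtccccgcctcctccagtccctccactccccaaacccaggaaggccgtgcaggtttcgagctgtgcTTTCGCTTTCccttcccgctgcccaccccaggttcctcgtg
Psme2, chr14:55591052-55591351, minus strand: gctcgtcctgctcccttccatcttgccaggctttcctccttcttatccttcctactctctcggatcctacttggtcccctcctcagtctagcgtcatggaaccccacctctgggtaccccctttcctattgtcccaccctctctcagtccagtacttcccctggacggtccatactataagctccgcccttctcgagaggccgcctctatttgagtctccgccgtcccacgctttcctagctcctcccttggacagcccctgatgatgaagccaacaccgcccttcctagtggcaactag
Psmd10, chrX:140956662-140956961, minus strand: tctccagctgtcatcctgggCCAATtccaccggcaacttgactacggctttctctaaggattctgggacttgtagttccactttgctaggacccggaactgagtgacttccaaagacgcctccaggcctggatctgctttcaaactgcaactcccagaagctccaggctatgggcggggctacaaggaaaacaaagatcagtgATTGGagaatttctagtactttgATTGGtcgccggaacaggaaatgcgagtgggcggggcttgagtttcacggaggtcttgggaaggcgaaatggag

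In the *Psme1* window the capitals mark a match to the interferon-stimulated response element, GAAANNGAAA, on the other strand and just after the RefSeq start. In the *Psmd10* window they mark 3 matches to the CCAAT box, 1 on the strand of the gene and 2 on the other. The windows of *Psme2* and *Psmb10* held no match to the motifs searched. A window was given for 34 of the 41 genes. The interferon motif, which was added after the results were seen, was found in 4 of these 34 (*Psmb3*, *Psmd4*, *Psmd9* and *Psme1*) and in 3.99% of all 27025 genes with a window. CCAAT was found in 13 of the 34 genes and in 41.1% of all genes, and the core of the antioxidant response element bound by NRF1 and NRF2, TGACNNNGC, in 6 of the 34 (*Psmb5*, *Psmb6*, *Psmc6*, *Psmd12*, *Psmd9* and *Psme4*) and in 14% of all genes. Both strands were searched for each motif separately. None of these 6 genes passed the test with either LDL.

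*Psme2* encodes PA28 beta, which combines with PA28 alpha in a ring that caps the core. Its level in mice 1, 2 and 3 of the wild type was 101, 96.2 and 90.3 CPM in Control, 88.2, 87.1 and 75.4 CPM with AcLDL and 80.5, 61.6 and 59.9 CPM with OxLDL. In the knockout it was 117, 93.4 and 129 CPM in Control, 54.3, 82.6 and 71.2 CPM with AcLDL and 61.4, 67.0 and 62.9 CPM with OxLDL. In either genotype, each library with LDL lay below each Control library. As the mean of both genotypes, it fell by 37.2% with OxLDL (log2 fold change -0.67 ± 0.11 SE, adjusted p = 0.000385 by edgeR). With AcLDL it fell by 26.6% (-0.45 ± 0.11, adjusted p = 0.0328).

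Within the knockout alone, the fall of *Psme2* was -0.83 ± 0.16 on the log2 scale with OxLDL (adjusted p = 0.00346 by edgeR) and -0.69 ± 0.16 with AcLDL (adjusted p = 0.0381). In the wild type alone the fold change with OxLDL was -0.52 ± 0.16 and did not pass (adjusted p = 0.156), but it passed with the mouse as a block (adjusted p = 0.0267). The difference between the genotypes in the OxLDL response was -0.31 (95% interval -0.78 to 0.17, adjusted p = 1 by edgeR), so a larger fall in the knockout was not shown. About 33.5% of the 31-base words of *Psme2* are shared with its copy *Psme2b*, which had 99 counts in all against 2144 for *Psme2*. With the counts of the pair summed, the fold change with OxLDL was -0.67 (adjusted p = 0.000134).

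*Psme1* encodes PA28 alpha, the partner of PA28 beta. It was measured at 122, 160 and 140 CPM in the 3 wild type Control libraries and at 107, 123 and 122 CPM with OxLDL. In the knockout the values were 167, 143 and 164 CPM in Control and 101, 118 and 126 CPM with OxLDL. The groups overlapped in the wild type and did not overlap in the knockout. With OxLDL, *Psme1* fell by 21.8% as the mean of both genotypes (-0.35 ± 0.10, adjusted p = 0.0356 by edgeR). With AcLDL the wild type libraries were at 123, 169 and 134 CPM and those of the knockout at 115, 135 and 124 CPM, and the mean change of -0.16 ± 0.10 did not pass (adjusted p = 0.576). *Psme1* overlaps *Emc9* on the opposite strand, and the strand setting of the counting is not given in the sources used here.

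The other activators did not pass the test in any comparison. *Psme3*, the nuclear PA28 gamma, had a mean log2 fold change with OxLDL of -0.23 ± 0.13 (adjusted p = 0.375 by edgeR), and *Psme4*, the PA200 activator, of 0.04 ± 0.12 (adjusted p = 0.917).

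*Psmb10* encodes the immunoproteasome subunit that takes the place of the trypsin-like subunit *Psmb7*. In the wild type it was at 22.3, 39.0 and 37.1 CPM in Control, at 31.3, 37.6 and 19.7 CPM with AcLDL and at 14.3, 16.6 and 19.5 CPM with OxLDL. In the knockout the values were 27.1, 28.4 and 24.5 CPM in Control, 18.9, 23.9 and 30.1 CPM with AcLDL and 23.5, 15.7 and 23.1 CPM with OxLDL. Each library with OxLDL lay below the Control libraries of its genotype, while those with AcLDL overlapped them. The mean change with OxLDL was -0.66 ± 0.19 (adjusted p = 0.0365 by edgeR). Within the wild type it was -0.97 ± 0.27 (adjusted p = 0.0873, and 0.0172 with the mouse as a block), and within the knockout -0.36 ± 0.26 (adjusted p = 0.648). The difference between the genotypes was 0.60 with a 95% interval of -0.17 to 1.38 and an adjusted p of 1 by edgeR. DESeq2 did not call *Psmb10* with OxLDL. Like *Psme1*, it overlaps a gene on the opposite strand, *Gm16156*, and the strand setting is not given.

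*Psmd10* encodes gankyrin, which holds ATPases of the 19S base during assembly. Its level in the wild type was 26.9, 29.3 and 26.9 CPM in Control, 29.4, 19.9 and 21.7 CPM with AcLDL and 20.6, 14.2 and 19.5 CPM with OxLDL. In the knockout it was 36.1, 23.5 and 30.3 CPM in Control, 12.6, 11.7 and 17.95 CPM with AcLDL and 12.6, 13.7 and 17.9 CPM with OxLDL. All LDL libraries of the knockout lay below its Control libraries, and in the wild type 1 library with AcLDL lay above them. As the mean of both genotypes, *Psmd10* fell by 43.2% with OxLDL (-0.82 ± 0.17, adjusted p = 0.00389 by edgeR). With AcLDL it fell by 36.8% (-0.66 ± 0.17, adjusted p = 0.0386).

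Within the knockout, the change of *Psmd10* was -1.002 ± 0.242 with OxLDL (adjusted p = 0.0245 by edgeR) and -1.08 ± 0.24 with AcLDL (adjusted p = 0.0346). Within the wild type it was -0.63 ± 0.24 with OxLDL (adjusted p = 0.323) and -0.24 ± 0.24 with AcLDL (adjusted p = 0.915). The genotypes differed in the AcLDL response by -0.83 (95% interval -1.54 to -0.13), with an unadjusted p of 0.0222 and an adjusted p of 1. These values rest on 15 to 60 counts per library. The other chaperones of the base moved less with OxLDL, with 0.16 ± 0.13 for *Psmd5* (adjusted p = 0.609) and 0.06 ± 0.22 for *Psmd9* (adjusted p = 0.940), and neither passed.

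**Figure D2:**
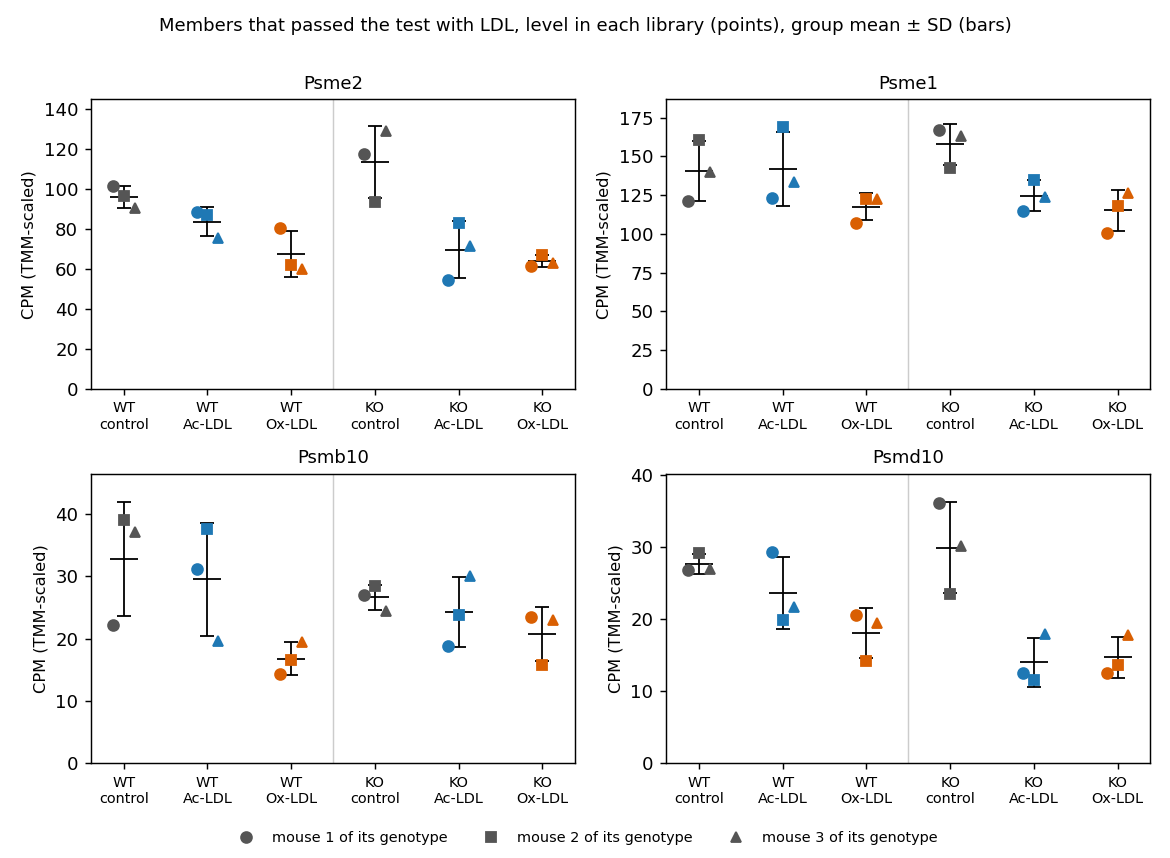
Level of *Psme2*, *Psme1*, *Psmb10* and *Psmd10* (TMM-scaled CPM) in each of the 18 libraries by genotype (WT, wild type; KO, knockout) and medium. Symbols mark the mouse and bars the group mean ± SD (n = 3). For *Psme2* the Control libraries, from 90.3 to 129 CPM, lie above those with OxLDL, from 59.9 to 80.5 CPM, in both genotypes.

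*Psme2* and *Psmd10* passed with OxLDL, as the mean of both genotypes, in each of 28 alternative fits, those without any 1 library included, while *Psme1* passed in 16 and *Psmb10* in 15 of them. With scaling by library size alone, or with library sizes without the transcript *Gm26917* (6.6% to 12.3% of the counts), *Psme2* and *Psmd10* alone passed with OxLDL. The same 2 genes alone passed without mouse 1 or 3 of knockout Control, mouse 1 or 2 of knockout OxLDL, or mouse 2 or 3 of wild type Control. The calls with AcLDL were less firm. By edgeR, 0 of the 41 genes passed with AcLDL under either of these scalings, and also without mouse 1 or 3 of knockout Control, mouse 1 of knockout AcLDL, mouse 2 or 3 of wild type Control, or mouse 2 or 3 of wild type AcLDL. Neither scaling moved the median log2 fold change of all genes by more than 0.07.

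The constitutive body of the proteasome differed little from its Control level in the mean of both genotypes. Apart from the 3 interferon-inducible genes and the 2 near 0, the group holds 36 genes, of which *Psmd10* alone passed the test with either LDL. Their median log2 fold change was -0.06 with OxLDL, with 25 of the 36 below 0, and -0.08 with AcLDL, with 29 below 0, as means of both genotypes. Of all 12290 genes tested, 5954 were below 0 with OxLDL and 6278 with AcLDL in these means. In the wild type the medians were -0.01 with OxLDL (19 below 0) and -0.06 with AcLDL (21 below 0). In the knockout they were -0.13 with OxLDL (31 below 0) and -0.12 with AcLDL (30 below 0). Of all 12290 genes, 6014 and 6212 were below 0 with OxLDL and AcLDL in the wild type, and 6062 and 6225 in the knockout. With OxLDL the 95% interval of 33 of the 36 lay within a 1.5-fold change in either direction, and with AcLDL that of 33 as well, so that larger changes of these genes fell outside their intervals. Leaving out *Psmd10*, the fold changes with OxLDL ran from -0.35 to 0.22. A failure to pass in the single genotypes says less, since there 25 (wild type) and 17 (knockout) of the intervals with OxLDL were as narrow.

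In the alpha ring, all 7 genes had values below 0 with OxLDL and none passed. *Psma2* was lowest (-0.33 ± 0.12, adjusted p = 0.134 by edgeR, 0.036 with the mouse as a block) and *Psma7* highest (-0.02 ± 0.13, adjusted p = 0.969). Among the noncatalytic beta subunits, *Psmb3* (-0.35 ± 0.16, adjusted p = 0.277) and *Psmb4* (0.22 ± 0.15, adjusted p = 0.501) marked the ends of the range. For the 6 ATPases of the base, which unfold the substrate, values ran from -0.07 ± 0.11 for *Psmc3* (adjusted p = 0.836) to 0.05 ± 0.18 for *Psmc5* (adjusted p = 0.936).

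The non-ATPase subunits of the base include the ubiquitin receptor *Psmd4*, which had the lowest value of its 3 genes with OxLDL (-0.18 ± 0.10, adjusted p = 0.364 by edgeR), and the scaffold *Psmd1*, which had the highest (-0.08 ± 0.09, adjusted p = 0.712). In the lid, values ran from -0.30 ± 0.14 for *Psmd3* (adjusted p = 0.286) to 0.09 ± 0.16 for *Psmd8* (adjusted p = 0.851), and none of the 8 genes passed. *Psmd14*, the lid enzyme that cuts ubiquitin from substrates, was at -0.26 with AcLDL (adjusted p = 0.389).

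**Figure D3:**
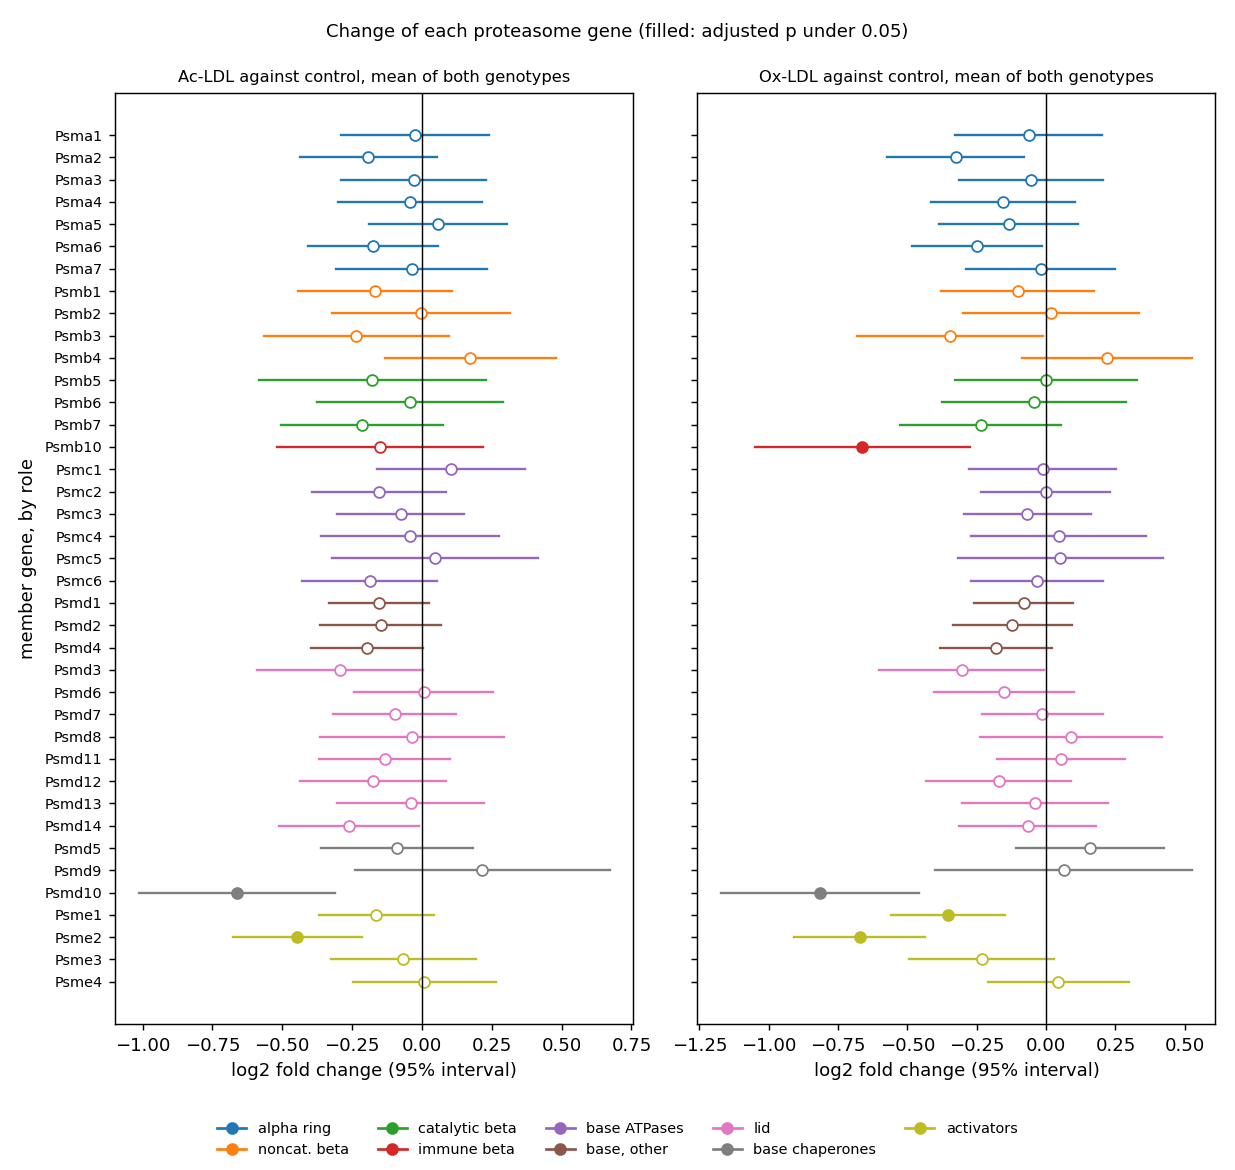
Log2 fold change of 39 proteasome genes with AcLDL (left) and OxLDL (right) against Control, mean of both genotypes, with 95% intervals, coloured by role. Filled points passed at an adjusted p under 0.05: *Psmd10* and *Psme2* in both panels, *Psme1* and *Psmb10* in the right panel. The ATPases in the right panel lie between -0.07 and 0.05.

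The catalytic subunits were compared with their immunoproteasome counterparts, as the share of the inducible gene in the sum of a pair of length-scaled levels. Constitutive *Psmb5*, the chymotrypsin-like subunit, was at 46.4 ± 14.3 CPM (SD, n = 3) in wild type Control and 49.7 ± 26.6 CPM with OxLDL, and at 37.0 ± 3.74 and 35.1 ± 3.37 CPM in the knockout, with a mean log2 fold change of 0.00 ± 0.16 (adjusted p = 1 by edgeR). *Psmb6*, the caspase-like subunit, changed by -0.04 ± 0.16 (adjusted p = 0.942) and *Psmb7* by -0.24 ± 0.14 (adjusted p = 0.431). About 71.7% of the 31-base words of *Psmb5* also occur in other genes of the GENCODE annotation, mainly *Gm3375*. That gene is not listed by this name among the genes counted, so the level of *Psmb5* is uncertain. *Psma5* (58.7%), *Psmc1* (32.2%) and *Psmd2* (31.6%) share words with other genes as well.

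*Psmb8*, which replaces *Psmb5*, is outside the rule that chose the genes and is given beside them. It was at 107 ± 18.7 CPM in wild type Control and 75.7 ± 15.3 CPM with OxLDL, and at 97.5 ± 0.753 and 73.7 ± 3.86 CPM in the knockout, a mean change of -0.46 ± 0.11 (adjusted p = 0.0159 by edgeR), lower in 6 of 6 mice. *Psmb9* was low, from 5.47 to 19.5 CPM, and changed by -0.27 ± 0.26 (adjusted p = 0.677). The share of *Psmb8* in the pair with *Psmb5* was 38.7% ± 10.1 in wild type Control, 30.9% ± 8.98 with OxLDL, 41.3% ± 2.5 in knockout Control and 35.9% ± 2.22 with OxLDL. That of *Psmb10* in the pair with *Psmb7* was 54.1% ± 9.48, 43.0% ± 8.33, 52.8% ± 0.613 and 49.6% ± 5.9 in the same order. The share of *Psmb9* in the pair with *Psmb6* was low, at 6.91% ± 3.22, 7.24% ± 3.66, 7.3% ± 1.9 and 5.61% ± 1.08. Within the mice, the *Psmb8* share was lower with OxLDL than with Control in 6 of 6, the *Psmb10* share in 5 of 6 and the *Psmb9* share in 4 of 6. With AcLDL these counts were 3, 2 and 4 of 6. The length used was that of all annotated exons of a gene together. It was 3381 bases for *Psmb8* against 899 for *Psmb5*, and 1705 for *Psmb10* against 3421 for *Psmb7*. The size of a share depends on these lengths, so it does not show which gene of a pair was more abundant. No test was run on the shares.

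No proteasome gene passed the test between genotypes. In Control, with AcLDL and with OxLDL, edgeR called 0 of the 41 genes between knockout and wild type at an adjusted p under 0.05, and DESeq2 called 0. At an unadjusted p under 0.05, edgeR gave 0, 1 and 2 genes and DESeq2 0, 1 and 0. Among all genes tested, the adjusted calls were 0.00814%, 0.0163% and 0.00814%, and the unadjusted calls 3.95%, 4.87% and 4.78%. With counts summed per mouse over the 3 media, 0 of the 41 genes passed by either tool, adjusted or unadjusted, where 0.00789% of 12673 genes passed adjusted and 4.14% unadjusted. The 95% interval of the genotype difference in these sums lay within a 1.5-fold change for 35 of the 36 constitutive genes.

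No proteasome gene passed the test for a difference in LDL response between the genotypes. For the difference in the response to AcLDL, edgeR gave 0 of the 41 genes adjusted (0% of all genes) and 2 unadjusted, *Psmd10* and *Psme2* (2.66% of all genes), and for OxLDL 0 adjusted (0%) and 1 unadjusted, *Psmc6* (2.75%). DESeq2 gave 0 genes for either, adjusted or unadjusted. The intervals of these differences were wide: that for OxLDL lay within a 1.5-fold change for 7 of the 36 constitutive genes.

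Calls made within a single genotype are given for completeness. In the wild type, edgeR called 0 of the 41 genes with AcLDL and 0 with OxLDL, where 0.472% and 1.34% of all genes passed, and DESeq2 called 0 in both. Unadjusted, edgeR gave 0 genes with AcLDL, where 7.34% of all genes passed, and 3 with OxLDL, all lower, where 5.36% of all genes were lower. DESeq2 gave 0 and 3 genes unadjusted. In the knockout, 2 genes fell with AcLDL and 2 with OxLDL, *Psme2* and *Psmd10* both times, and 0 rose, where 0.448% and 1.65% of all genes were lower and 0.0732% and 0.659% higher. With the mouse as a block, 2 genes passed in the wild type with OxLDL, *Psmb10* and *Psme2*. Without mouse 1 of wild type Control, *Psmb10* alone passed there. In the knockout, *Psme2* alone passed with OxLDL without mouse 1 or 3 of Control or mouse 1 or 2 of OxLDL. With AcLDL, 0 genes passed in the knockout by edgeR without mouse 1 or 3 of its Control, mouse 1 of its AcLDL or mouse 3 of its OxLDL group, or without mouse 3 of wild type AcLDL or OxLDL, and 1 passed without mouse 2 or 3 of its AcLDL or mouse 1 or 2 of its OxLDL group. For the fits with a block or without a library, the share of all genes that passed is not given here. These counts do not show that the genotypes differ, which is the subject of the test above.

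OxLDL and AcLDL, compared directly as means of both genotypes, gave 0 of the 41 genes by edgeR and 0 by DESeq2 (0.391% of all genes by edgeR). Unadjusted, 1 gene passed by edgeR, *Psmb10*, which was lower with OxLDL (-0.51 ± 0.19, adjusted p = 0.400). Of all 12290 genes, 8.39% passed unadjusted in either direction, and 524 genes passed as lower. The 95% interval lay within a 1.5-fold change for 35 of the 36 constitutive genes.

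Wild type mouse 1 stood apart in the summed level of the constitutive genes. Its libraries were at 3100.1 CPM in Control, 3082.5 CPM with AcLDL and 3449 CPM with OxLDL, whereas the other wild type libraries lay between 2382.5 and 2729 CPM. In the knockout the Control libraries were at 2755 to 3006 CPM, those with AcLDL at 2543 to 2707 CPM and those with OxLDL at 2510.2 to 2625 CPM. With TMM scaling each knockout library with LDL was therefore below the Control libraries, but with scaling by library size alone, 1 with AcLDL (2759 CPM) and 1 with OxLDL (2696 CPM) lay above the lowest Control library (2679 CPM). The median log2 difference between knockout and wild type with OxLDL over the 41 genes was -0.11, and 0.01 without wild type mouse 1 in OxLDL. Without wild type mouse 1 altogether, 4 genes passed with OxLDL and 2 with AcLDL in the mean of both genotypes, *Psme2*, *Psmd10*, *Psme1* and *Psmb10* for the first and *Psme2* and *Psmd10* for the second.

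**Figure D4:**
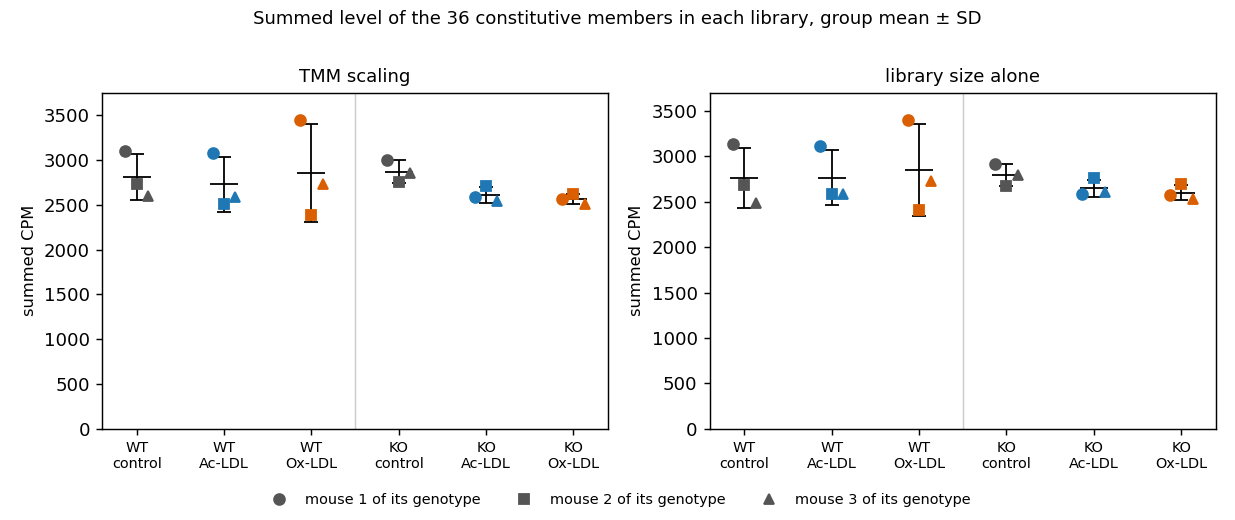
Summed CPM of 36 constitutive proteasome genes in each library with TMM scaling (left) and with library size alone (right), by genotype and medium. Symbols mark the mouse and bars the group mean ± SD (n = 3). Wild type mouse 1 lies highest in each medium of its genotype, up to 3449 CPM with OxLDL on the left.

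Around the proteasome, 39 genes of 5 lists were tested, and 3 passed with an LDL in the mean of both genotypes, all lower: *Psmb8* and *Tap2* with OxLDL, where 3.57% of all genes were lower, and *Nfe2l1* with AcLDL, where 1.44% were. Of 4 interferon-inducible genes of antigen processing, 2 fell with OxLDL (*Psmb8*, above, and *Tap2*, a subunit of the peptide transporter of the endoplasmic reticulum, at -0.60 ± 0.15, adjusted p = 0.0169 by edgeR) and the median of the list was -0.40. *Psmb8* passed in 26 and *Tap2* in 24 of the 28 alternative fits. *Tap1*, the partner of *Tap2*, was at -0.34 ± 0.22 (adjusted p = 0.481 by edgeR, 0.0565 with the mouse as a block), lower in 6 of 6 mice. With AcLDL 0 of these 4 passed by edgeR.

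Of 6 genes of transcriptional control, *Nfe2l1*, which encodes NRF1, the factor that raises proteasome genes when the proteasome is inhibited, was lower with AcLDL (-0.36 ± 0.09, adjusted p = 0.0447 by edgeR) in 6 of 6 mice. It was at 149, 145 and 159 CPM in wild type Control and at 119, 96.7 and 132 CPM with AcLDL, and at 182, 167 and 157 CPM and 131, 143 and 128 CPM in the knockout. Its call with AcLDL was kept in 8 of the 28 alternative fits. With OxLDL its value was -0.25 ± 0.09 (adjusted p = 0.142, and 0.021 with the mouse as a block), also lower in 6 of 6 mice. *Nfe2l2*, which encodes NRF2, was at -0.09 ± 0.09 with OxLDL (adjusted p = 0.693).

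In the 3 lists that remain, no gene passed with either LDL in the fit of the whole table. Of 28 alternative fits, *Zfand5* passed with AcLDL in 5 and *Rps27a* with OxLDL in 3, the block included. With OxLDL the median was -0.13 for 5 assembly chaperones of the core, led by *Pomp* (-0.22 ± 0.12, adjusted p = 0.372 by edgeR), and -0.05 for 10 other subunits and bound factors, led by *Zfand5*, which stimulates the proteasome (-0.20 ± 0.09, adjusted p = 0.256). With AcLDL *Zfand5* was at -0.32 ± 0.09 (adjusted p = 0.0699, and 0.00588 with the mouse as a block), lower in 6 of 6 mice. The median with OxLDL was -0.09 for 14 genes of ubiquitin, its activating enzymes and shuttle factors. This list was led by *Rps27a*, a ubiquitin fusion gene, also with OxLDL (-0.28 ± 0.11, adjusted p = 0.161 by edgeR, and 0.00355 with the mouse as a block). *Psmf1*, an inhibitor of the core, was at 0.14 ± 0.18 with OxLDL (adjusted p = 0.777 by edgeR).

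A few markers of cell type or state also changed with LDL. Among 7 macrophage markers 1 rose with OxLDL (*Mertk*, an engulfment receptor, 0.56 ± 0.16, adjusted p = 0.046 by edgeR) and 1 fell (*Adgre1*, which encodes F4/80, -0.57 ± 0.16, adjusted p = 0.0329), where 1.81% of all genes were higher and 3.57% lower, and the median log2 fold change of the 7 was -0.13. The median of their summed level went from 30030 CPM in Control to 26020 CPM with OxLDL in the wild type. In the knockout it went from 19330 to 13630 CPM. However, 76.5% of the counts of the list came from *Lyz2*, the locus that carries the Cre, which did not pass with OxLDL (-0.38 ± 0.14, adjusted p = 0.129 by edgeR). Between genotypes, *Lyz2* was lower in the knockout with AcLDL (-1.23 ± 0.20, adjusted p = 0.0148 by edgeR) and with OxLDL (-1.24 ± 0.20, adjusted p = 0.0261). In Control it did not pass (-0.87 ± 0.20, adjusted p = 0.555), nor with counts summed per mouse (-1.08 ± 0.21, adjusted p = 0.98). Without *Lyz2* the median sum went from 6417 to 4874 CPM in the wild type and from 5883 to 4739 CPM in the knockout. The summed neutrophil markers had a median of 83.0 CPM in Control and 156 CPM with OxLDL in the wild type, and 59.0 and 57.2 CPM in the knockout. Of the 5 neutrophil markers tested, 0 passed with OxLDL in either genotype or in their mean. Of 6 proliferation genes 1 rose with AcLDL and 0 with OxLDL in the mean of both genotypes, where 0.561% and 1.81% of all genes were higher. In bulk libraries, fewer cells of a type and less RNA per cell cannot be told apart. The part of these markers in the fall of the 4 proteasome genes was not tested.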

How the data were processed

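RNA-Seq of BM-derived macrophages from 3 knockout and 3 wild type mice was analysed, each in 3 media, 18 libraries in all, with groups and mice taken from the labels and doses, times and ages from the study's methods. Reads were trimmed by the authors (Trim Galore), mapped to mm10 (STAR) and quantified against Ensembl release 93 (salmon). The deposited table holds estimated counts from salmon for each gene, without normalization. Tool versions and the strand setting are not given in the sources used here.

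Estimated counts were rounded, and filterByExpr kept genes that reached its limits (2 counts, 10 in total). All 6 groups entered one quasi-likelihood model in edgeR 4.0.16 (R 4.3.3) with TMM factors, which left 12 residual degrees of freedom, and p-values were adjusted by Benjamini-Hochberg over all genes. Log2 fold changes are given with SE. The genotypes were also compared with counts summed per mouse. Replicates of each group differed by more than counting error. TPM used the length of all annotated exons of a gene together, from the GENCODE annotation of GRCm38, which also gave the gene positions. A floor of 3 counts corresponds to 1.66 to 2.84 CPM, and such limits cover counting error only. The procedure was tested on simulated counts with libraries drawn independently, so the pairing by mouse was not part of that test. Figures were drawn with matplotlib 3.10.9.

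The proteasome genes and the lists were chosen with earlier results of these data known. Genes are named by a rule: those that passed in any comparison, the highest and lowest of each role with OxLDL, the catalytic subunits with their inducible counterparts, genes near 0, from each other list those that passed or else that with the smallest p, and *Nfe2l1*, *Nfe2l2*, *Psmf1* and *Slc7a7*. *Psmd14*, *Psmc6*, *Tap1*, *Mertk*, *Adgre1*, *Lyz2* and the genes with a motif match were added after their values were seen. Protein sequences were not analysed here.

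The labels give each mouse an identity that recurs in each medium, so media are paired by animal within a genotype. Deviations of libraries of the same mouse from their group means had correlations from 0.055 to 0.292, over 0.1 in 14 of 18 pairs. Alternatives were DESeq2 1.42.0, RLE or library-size scaling, library sizes without *Gm26917*, 2 other filters, a model restricted to the groups at issue, the mouse as a block, and each library left out in turn. Leaving out wild type mouse 1 and summing *Psme2* with *Psme2b* were chosen after seeing the data.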

Additional observations from a re-analysis of the deposited data

How the results depend on the processing

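Of the 41 proteasome genes, the number that passed with OxLDL as the mean of both genotypes was 4, and it was 3 by DESeq2, 2 with scaling by library size alone or with library sizes without *Gm26917*, and 2 to 4 without single libraries. With AcLDL as the mean of both genotypes the number was 2, and it was 1 by DESeq2, 0 with scaling by library size alone, without *Gm26917* or in a model restricted to those libraries, and 0 to 2 without single libraries. In the knockout with AcLDL it was 2, with 1 by DESeq2, 0 under the same 2 scalings and 0 to 2 without single libraries, and in the knockout with OxLDL it was 2, with 3 in a model restricted to those libraries or without wild type mouse 1 altogether (*Psme1* was added in both) and 1 to 2 without single libraries. In the wild type with OxLDL it was 0, with 1 when no filter beyond 1 count was used, 2 with the mouse as a block and 0 to 1 without single libraries. With the mouse as a block, 5 genes passed with OxLDL as the mean of both genotypes (*Psma2* was added) and 3 in the knockout (*Psme1* was added), and the block changed no other call among the 41 genes. Outside them it added, in the mean of both genotypes, *Nfe2l1* and *Rps27a* with OxLDL and *Zfand5* with AcLDL. The share of all genes that passed in each of these alternative fits is not given here. The counts therefore show only how the calls depended on the setting, and the genes added are not a result particular to the proteasome. The genotype comparisons are between different mice, so no paired fit could be made for them.

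No value changed sign among those called, and for the comparisons between genotypes, in LDL response and between the LDL preparations the number that passed was 0 in every fit run. *Psme2* with OxLDL kept its call in each of the 28 alternatives, with adjusted p from 3.42e-06 to 0.00229, and *Psmd10* with adjusted p from 0.000489 to 0.0194. The cause of the calls lost under other scalings was not tested. Genes such as *Psmd10* and *Psmb10* rest on at most 60 counts in any library.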
